A study of Mus musculus with 18 samples.

Results

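Ly6a, Ly6c1, Ly6e and Ly6h, 4 members of the mouse Ly6 gene family, were followed in ribosome-bound and total RNA of 3 mouse tissues. They were picked by symbol from the deposited gene tables, as 4 of the 14411 genes listed in any of 3 tissue tables, and with knowledge of their values in all 6 groups. Their levels and differences are therefore given as a description, without tests. The Brain and Retina tables (13957 and 12827 genes) list all 4, and the Choroid table (7569 genes) lists Ly6a, Ly6c1 and Ly6e. Tests are given only for other genes, whose lists were also drawn up with earlier results of these data known.

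All mice carried the genotype Cdh5(PAC)-cre/ERT2+; NuTRAP+ and had received tamoxifen. The Cdh5 promoter, that of vascular endothelial cadherin, drives the inducible Cre, and Cre switches on a GFP-tagged ribosomal protein from the NuTRAP allele, so that ribosomes of the recombined cells can be pulled down with an antibody to GFP. This is translating ribosome affinity purification, TRAP. For brain, retina and choroid the groups were Input, a portion of the cleared homogenate kept before the pull-down, and Positive, the RNA eluted from the pull-down, with 3 libraries in each of the 6 groups. No mice without Cre are among the groups used here. The labels call the libraries biological replicates and give neither age nor the number of animals, so the spread measured is that between libraries.

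Ly6 proteins are small and share the Ly6/uPAR fold, a disulphide-linked core with projecting loops. Most are held on the outer face of the plasma membrane by a glycosylphosphatidylinositol (GPI) anchor. In mice many of their genes lie in a cluster on chromosome 15. Ly6a, also called Sca-1, is a surface marker of haematopoietic stem cells and of many mouse endothelial cells, and on brain endothelium it serves as the receptor of the engineered AAV-PHP.B capsid. Ly6c1 is closely related to Ly6c2, and antibodies to Ly6C label monocytes as well as endothelium. Ly6e is interferon-inducible and limits entry of several viruses. Ly6h is a neuronal member that interacts with nicotinic acetylcholine receptors.

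In mm10 the 4 genes lie on chromosome 15. Ly6e spans 74955051 to 74959905 on the plus strand, Ly6a 74994877 to 74998031 on the minus strand, Ly6c1 75044018 to 75048837 on the minus strand and Ly6h 75564745 to 75567182 on the minus strand. The cluster of 23 annotated Ly6/uPAR genes from Psca to Gpihbp1 covers 883.4 kb. Ly6c2 lies beside Ly6c1, at 75108161 to 75111949 on the minus strand.

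Sequence likeness bears on how reads could be assigned, so the coding starts of Ly6c1 and Ly6c2 are shown, bases 1 to 90 from the start codon, taken from the annotated transcripts of the mouse reference. Capitals mark the positions at which the 2 genes differ; the stretch holds 6 of the 9 differences over the 396 coding bases, stop codon included.
Ly6c1: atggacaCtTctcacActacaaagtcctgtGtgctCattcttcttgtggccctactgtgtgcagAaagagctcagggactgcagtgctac
Ly6c2: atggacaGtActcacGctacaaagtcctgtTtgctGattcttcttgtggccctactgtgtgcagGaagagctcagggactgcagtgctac
The whole coding sequences are 97.73% identical, and the longest stretch without a difference is 188 bases. Of the 50-base words in annotated Ly6c1 transcripts, 32.8% also occur in transcripts of other genes, mostly Ly6c2 and Ly6a. The share was 19.0% for Ly6a, 31.2% for Ly6c2, 0.248% for Ly6h and 0 for Ly6e. The counting program is not given in the sources used here, so the division of reads among Ly6a, Ly6c1 and Ly6c2 is uncertain, while Ly6e and Ly6h are little touched.

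Of the 4 genes, the RefSeq promoter table (GRCm38.p6, the assembly of mm10) holds windows for Ly6c1 only. Ly6c1 is shown with Ly6c2, since both genes were higher in Positive libraries. For each of these genes 2 windows are held, and only the first listed was searched and is shown. Each window runs from 250 bases before to 50 bases after the start, on the minus strand, at chr15:75048788-75049087 for Ly6c1 and chr15:75111922-75112221 for Ly6c2. Capitals mark matches to the motifs searched on both strands.
Ly6c1 promoter: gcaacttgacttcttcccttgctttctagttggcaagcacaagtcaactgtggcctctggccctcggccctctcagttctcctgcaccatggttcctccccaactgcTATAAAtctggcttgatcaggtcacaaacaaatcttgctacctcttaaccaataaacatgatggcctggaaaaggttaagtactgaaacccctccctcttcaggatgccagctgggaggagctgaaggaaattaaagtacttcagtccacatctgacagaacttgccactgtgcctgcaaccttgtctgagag
Ly6c2 promoter: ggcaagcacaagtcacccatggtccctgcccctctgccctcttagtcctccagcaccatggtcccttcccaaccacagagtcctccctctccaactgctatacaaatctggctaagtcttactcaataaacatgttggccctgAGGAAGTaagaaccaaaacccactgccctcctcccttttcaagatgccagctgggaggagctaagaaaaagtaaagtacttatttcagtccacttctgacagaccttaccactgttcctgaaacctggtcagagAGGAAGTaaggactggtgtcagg
The Ly6c1 window holds 1 match to TATAAA, the letters of the TATA box motif, which occur in 13.6% of 32817 promoter windows. This match lies nearer the upstream end of the window than the start, and it is not read as a working TATA box. The Ly6c2 window holds 2 matches to AGGAAGT, an ETS-type motif found in 9.35% of windows. Neither of the windows shown holds a match to the interferon-stimulated response element (3.43% of windows) or the gamma-activated site (TTCNNNGAA, 8.29%). A match is a description of letters and was not linked to any binding in these data.

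Library depth limits the levels differently in each tissue. Summed over listed genes, the deposited estimated counts came to 28128866 to 43219831 in Brain Input, 31111437 to 40112343 in Brain Positive, 20915469 to 36157140 in Retina Input and 12325658 to 26069649 in Retina Positive. Choroid libraries were shallower, with 2018126 to 10031274 in Input and 713733 to 2717264 in Positive. Endothelial markers were higher in Positive for 14 of 14 listed genes in Brain, 13 of 14 in Retina and 13 of 13 in Choroid (edgeR quasi-likelihood test, Benjamini-Hochberg adjusted p under 0.05). Their summed level was 184.5 to 213.8 CPM (counts scaled to the library total) in Brain Input and 6193 to 6801 in Brain Positive. It was 252.3 to 299.4 in Retina Input and 3515 to 7324 in Retina Positive, with Positive 3 far above the other two, and 1965 to 3537 in Choroid Input against 17330 to 21830 in Choroid Positive. In Brain 8 of 8 fibroblast markers were higher in Positive as well, from a sum of 126.7 to 137.4 CPM to 1572 to 2356 CPM, while 10 of 10 neuronal markers were lower (10150 to 10700 against 4198 to 4782 CPM). In Choroid 7 of 7 listed fibroblast markers were lower in Positive, from 3222 to 4073 CPM to 408.1 to 773.3 CPM. In Retina 3 of 8 photoreceptor markers and 5 of 10 neuronal markers were lower in Positive and 0 higher, and their sums overlapped between fractions. Photoreceptor sums were 33110 to 40290 CPM in Input and 28540 to 47540 CPM in Positive, and neuronal sums 7477 to 8061 and 6011 to 8022 CPM. Retina Positive thus still held much RNA of other cells. Of 7 mural cell markers listed in Brain, 2 were higher and 4 lower, and their sum was 70.4 to 76.17 CPM in Input and 141.9 to 180.3 CPM in Positive. Of 12 blood leukocyte markers, 2 were listed in Choroid, none in Retina and 2 in Brain, where Cd79a was higher in Positive and Ptprc lower (a sum of 3.64 to 4.06 against 11.0 to 19.77 CPM). In Brain, Cd79a was listed through Positive only and Ptprc through Input only, so the filter favoured these directions.

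Ly6a, Ly6c1 and Ly6e were higher in the Positive than in the Input libraries of every tissue, and the 2 groups did not overlap in any of the 3 tables. In Brain 40.0% of all listed genes were higher without overlap, in Retina 22.7% and in Choroid 22.9%. Ly6h was lower in Positive without overlap in Brain and Retina, as were 41.1% and 22.7% of listed genes. These contrasts were part of the choice of genes, and nothing further is read from them. Levels below are CPM after TMM scaling within a tissue's table, and differences are log2 of Positive over Input with the standard error (SE) of the fit.

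Ly6a was measured at 27.5, 18.6 and 19.96 CPM in Brain Input 1, 2 and 3, and at 1005, 882.1 and 827.4 CPM in Brain Positive. Means were 22.0 ± 4.80 and 904.8 ± 90.9 CPM (SD, n = 3), and the log2 difference was 5.37 ± 0.16 (SE). Every Positive library stood far above every Input library, and Ly6a was at rank 28 of 13957 genes from the largest difference. The fibroblast markers, which were also higher in Brain Positive, are from a cell type that can carry Ly6a, and their part in the level was not tested. In Choroid Ly6a was already abundant before the pull-down, at 221.0, 204.6 and 126.6 CPM, and reached 494.8, 474.1 and 518.9 CPM in Positive. The log2 difference there was 1.44 ± 0.23 (SE, n = 3), rank 527 of 7569 genes. The Choroid Positive libraries were close to each other (495.9 ± 22.4 CPM, SD, n = 3), while Choroid Input 3 lay below the other Input libraries.

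The Retina libraries gave the widest spread for Ly6a. Input libraries 1, 2 and 3 had 17.5, 3.71 and 7.74 CPM, and Positive libraries 297.2, 322.3 and 565.5 CPM. The log2 difference was 5.33 ± 0.56 (SE, n = 3), rank 100 of 12827 genes. Retina Input 1 stood apart: its level was 2.25 times the higher of the other two Input libraries, while the same ratio was 0.751 for Ly6c1. Among the 10238 genes at or above the mean level of Ly6a in Retina Input, 4 had a ratio this large, and the others were Emp1, Prss56 and Rgr, singled out after their values were seen. Summed markers of the retinal pigment epithelium, a layer that adjoins the choroid, were 604.1 CPM in that library and 433.5 and 462.6 CPM in Input 2 and 3, and their part in the Ly6a level was not tested. Without Retina Input 1 the log2 difference of Ly6a was 6.13.

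Ly6c1 gave a Brain difference close to that of Ly6a and the highest Retina difference of the 4 genes. In Brain Input it had 31.0, 25.3 and 26.2 CPM, and in Brain Positive 1126, 1020 and 1067 CPM, a log2 difference of 5.29 ± 0.096 (SE, n = 3). The replicates were tight, and the fractions lay far apart. In Retina Input it had 4.90, 3.77 and 6.52 CPM, against 294.7, 317.1 and 653.1 CPM in Positive. The log2 difference of 6.40 ± 0.40 (SE, n = 3) put Ly6c1 at rank 16 of 12827 genes, and the high Positive value came from library 3, which also had the highest endothelial marker sum. In Choroid Input Ly6c1 had 63.5, 99.6 and 31.7 CPM, and in Choroid Positive 223.4, 240.3 and 273.1 CPM. The Choroid difference was 1.95 ± 0.34 (SE, n = 3), rank 309 of 7569, with the uncertainty lying mostly in the Input libraries (65.0 ± 33.97 CPM, SD, n = 3).

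Ly6e showed the smallest difference of the 3 genes in Brain and in Retina, and in Choroid one within error of that of Ly6c1. Brain Input libraries held 166.4, 168.0 and 149.1 CPM and Brain Positive libraries 1117, 1177 and 1022 CPM, a log2 difference of 2.78 ± 0.077 (SE, n = 3). In Retina Input it had 43.8, 31.9 and 36.2 CPM and in Retina Positive 363.4, 399.4 and 754.5 CPM, a difference of 3.76 ± 0.30. As for the 2 other genes, Retina Positive 3 was the highest library. In Choroid the levels were 346.2, 304.7 and 304.8 CPM in Input and 1299, 1386 and 1400 CPM in Positive, a difference of 2.10 ± 0.20 (SE, n = 3). Of all listed genes Ly6e was the 48th highest by CPM, without regard to length, in Brain Positive and the 60th in Choroid Positive.

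Ly6h was lower in Positive. It had 209.2, 201.8 and 203.5 CPM in Brain Input and 91.1, 102.6 and 90.7 CPM in Brain Positive, a log2 difference of −1.11 ± 0.070 (SE, n = 3). In Retina it had 27.7, 29.7 and 32.8 CPM in Input and 26.2, 22.0 and 21.8 CPM in Positive, a difference of −0.37 ± 0.12. The Retina groups were separated only narrowly: the highest Positive library, 1, lay just under the lowest Input library, also 1. In the Brain libraries the 10 neuronal markers were likewise lower in Positive, and in Retina 5 of 10 were. The part of neuronal RNA carried into the pull-down was not tested for Ly6h.

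**Figure D1:**
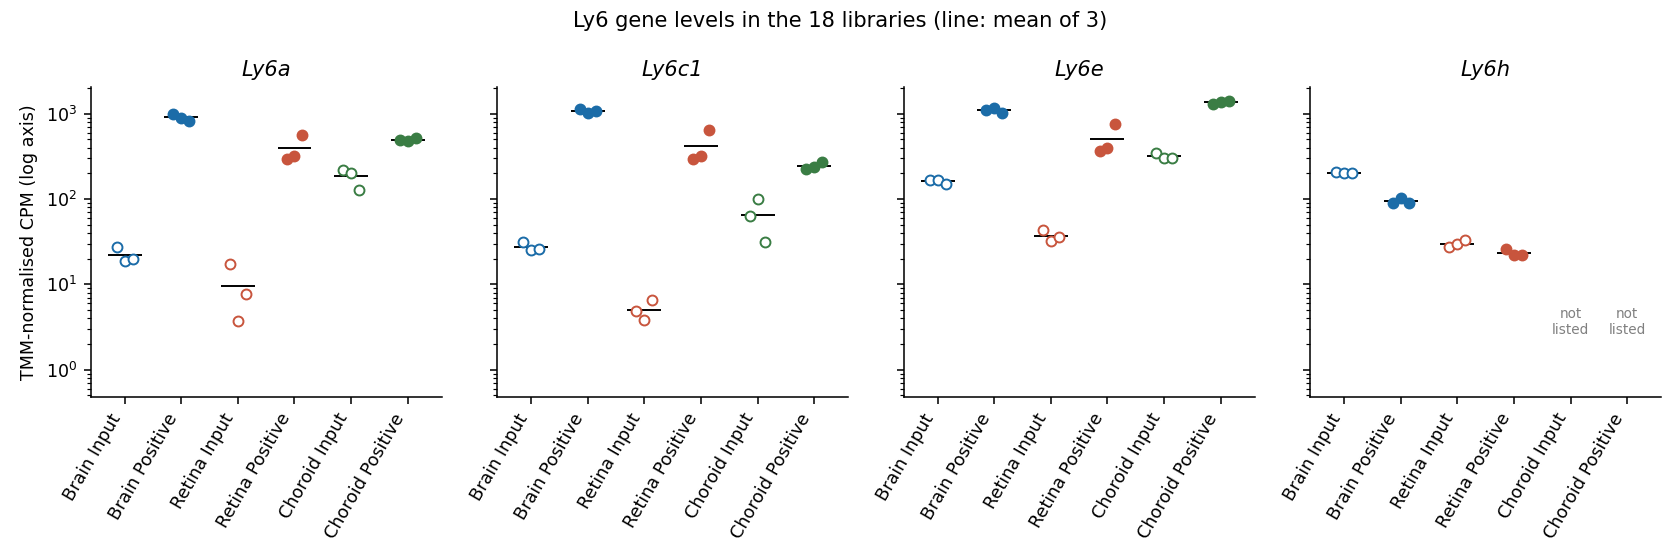
Levels of Ly6a, Ly6c1, Ly6e and Ly6h in each library, as TMM-normalised CPM within each tissue's table on a log axis; open points are Input, filled points Positive, and the line is the mean of 3 libraries. Ly6a lies at 3.71 to 27.5 CPM in Brain and Retina Input and at 297.2 to 1005 CPM in Positive, Choroid Input starts higher, and Ly6h is lower in Positive and not listed for Choroid.

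Across tissues the sizes of the differences were set side by side in fits over 12 libraries of each tissue pair. For Ly6a the Retina difference exceeded the Brain one by 0.0093 ± 0.54 (SE, log2), so the pair could not be ordered. For Ly6a Choroid minus Brain was −3.60 ± 0.28 and Choroid minus Retina −3.81 ± 0.59. For Ly6c1 Retina minus Brain was 1.16 ± 0.39, Choroid minus Brain −2.98 ± 0.38 and Choroid minus Retina −4.32 ± 0.53. For Ly6e the same values were 1.03 ± 0.32, −0.36 ± 0.17 and −1.57 ± 0.33. The contrast between Choroid and Brain was thus smaller for Ly6e than for Ly6a and Ly6c1. Endothelial markers also differed less in Choroid, with log2 values of Positive over Input from 2.28 (Emcn) to 3.01 (Tie1). In Brain they ran from 3.90 (Egfl7) to 5.41 (Erg), and in Retina from 0.77 (Kdr) to 6.63 (Cdh5). A smaller difference in Choroid than in Brain was therefore seen for the markers too, but its size was not the same. In Choroid, Ly6a (1.44 ± 0.23) and Ly6c1 (1.95 ± 0.34) lay below every listed endothelial marker. In Brain their values (5.37 and 5.29) lay within the marker range. Both genes thus stood lower beside the markers in Choroid than in Brain, and the reason was not tested. For Ly6h Retina minus Brain was 0.79 ± 0.13. In bulk samples fewer cells of a type and less RNA per cell cannot be told apart.

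Levels were ordered on a common scale, TMM over the 7270 genes listed in all 3 tables (for Ly6h, over the genes in Brain and Retina). Retina Positive held photoreceptor and neuronal markers near their Input sums (given above), and the part of this RNA in the order was not tested. Ly6a was highest in Brain Positive (1022 ± 95.8 CPM, SD, n = 3), and no library of another group reached its range. Choroid Positive (533.2 ± 25.8 CPM) and Retina Positive (455.2 ± 155 CPM) came next and overlapped, since Retina Positive 3 reached 633.2 CPM. Choroid Input (194.8 ± 52.6 CPM), Brain Input (27.8 ± 6.17 CPM) and Retina Input (12.9 ± 9.53 CPM) followed without overlap. The last 2 groups nearly touched, with Brain Input 2 at 23.52 CPM and Retina Input 1 at 23.5 CPM. Ly6c1 ran from Brain Positive (1210 ± 60.9 CPM) over Retina Positive (484.8 ± 214 CPM) and Choroid Positive (264.0 ± 27.6 CPM) to Choroid Input (68.5 ± 34.8 CPM), Brain Input (34.7 ± 4.01 CPM) and Retina Input (6.78 ± 1.79 CPM). Of these neighbours only Choroid Input and Brain Input overlapped. Ly6e alone was highest in Choroid Positive (1463 ± 58.6 CPM), followed by Brain Positive (1248 ± 77.3 CPM), Retina Positive (582.2 ± 228 CPM), Choroid Input (337.6 ± 28.2 CPM), Brain Input (203.3 ± 14.3 CPM) and Retina Input (50.0 ± 8.20 CPM), with no overlap between neighbours. Ly6h was ordered Brain Input, Brain Positive, Retina Input and Retina Positive, from 213.1 ± 3.09 to 24.7 ± 2.33 CPM (SD, n = 3), again without overlap. The share of all genes whose groups separate likewise on this scale was not counted, so nothing is read from the lack of overlap.

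Between genes, levels can be compared only per length, and the length chosen decided the order of 3 of the 4. Per kilobase of all annotated exons, Brain Positive held 901.2 ± 90.5 CPM of Ly6a, 692.2 ± 34.5 of Ly6c1, 449.3 ± 31.9 of Ly6e and 26.5 ± 1.90 of Ly6h (SD, n = 3). Per kilobase of the longest coding sequence the values were 2251 ± 226, 2428 ± 121, 2709 ± 192 and 197.5 ± 14.2 CPM, which turns the order of the first 3 around, with overlapping SDs between neighbours in that order. The longest Ly6c1 coding sequence has 441 bases, while the form shown above has 393 without its stop codon. That shorter length would raise the Ly6c1 value, so its place in this order depends on the transcript chosen. Ly6h was lowest on both scales. In Choroid Positive Ly6e was highest and Ly6c1 lowest on both scales, with 553.4 ± 22.3, 494.0 ± 22.3 and 158.8 ± 16.3 CPM per exon kilobase for Ly6e, Ly6a and Ly6c1.

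Set against endothelial RNA, Ly6a, Ly6c1 and Ly6e gave the same order of tissues in the Positive libraries. Expressed per 100 CPM of 13 endothelial markers listed in all tables, Ly6a in Positive libraries was 14.1 ± 0.761 in Brain, 8.44 ± 0.513 in Retina and 2.50 ± 0.235 in Choroid (SD, n = 3). Ly6c1 was 16.7 ± 0.740, 8.78 ± 0.290 and 1.24 ± 0.192, and Ly6e 17.3 ± 1.02, 10.7 ± 0.279 and 6.90 ± 1.03. For each of the 3 genes Brain lay above Retina and Retina above Choroid without overlap of the libraries. The divisor is shared and itself differed, with the marker sums given above at 17330 to 21830 CPM in Choroid Positive against 6193 to 6801 in Brain Positive. It lowers the Choroid ratio of any gene that is not raised there to the same degree. By CPM alone, Ly6e was highest in Choroid Positive. The share of all genes with this order was not counted. The 3 Retina Positive libraries, which differed nearly to the same degree in the members and in the markers, came together on this scale: Ly6c1 was 8.52, 8.72 and 9.09.

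In Input libraries the same ratio was 11.2 ± 1.60 for Ly6a and 14.01 ± 0.603 for Ly6c1 in Brain, somewhat below their Positive values. For Ly6e it was 82.5 ± 8.48 in Brain Input against 17.3 in Positive, so Input held much more Ly6e per endothelial marker than the pull-down did. For Ly6h it was 104.8 ± 5.96 against 1.48 ± 0.125 (SD, n = 3). In Choroid Input Ly6a was 6.25, 10.4 and 3.83 per 100 CPM of markers, above each Choroid Positive library (2.27 to 2.74), while Ly6c1 was 1.80, 5.07 and 0.960 and overlapped with Positive (1.02 to 1.39). Choroid Input also held more fibroblast markers (given above), macrophage markers (5 of 6 listed lower in Positive, a sum of 760.8 to 894.6 against 93.98 to 150.7 CPM) and blood leukocyte markers (2 of 2 listed lower, 71.1 to 79.01 against 8.12 to 13.2 CPM). The macrophage and leukocyte markers called lower were listed through Input only, so the filter favoured that direction. Pigment epithelium markers were lower in Positive for 6 of 6 listed genes, at 25010 to 42860 against 1956 to 3922 CPM. The part of these cells in the Ly6a and Ly6c1 levels was not tested. In Retina Input Kdr alone made up 54.4 to 59.9% of the marker sum, against 5.47 to 5.75% in Retina Positive. With Kdr left out of the sum, an alternative chosen after seeing the data, Ly6c1 was 4.37 ± 1.16 in Retina Input and 9.29 ± 0.295 in Positive, where the full sum gave 1.89 ± 0.623 in Input (SD, n = 3). Without Kdr, Retina Input 1 reached 13.7 for Ly6a, above the Positive libraries (8.33 to 9.38), and Input 2 and 3 were at 3.50 and 6.76.

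**Figure D2:**
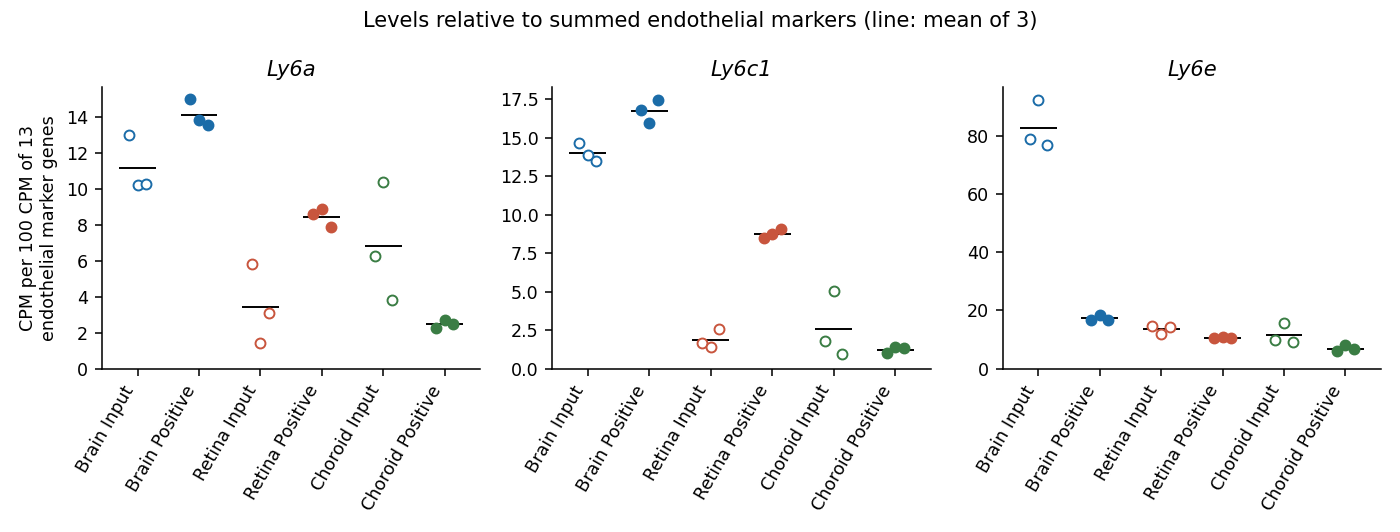
Ly6a, Ly6c1 and Ly6e CPM per 100 CPM of 13 endothelial marker genes in each library (open points Input, filled points Positive, line the mean of 3; each panel has its own linear axis from 0). Among Positive groups Brain is highest and Choroid lowest for each gene, and Brain Input is far above the rest for Ly6e at 82.5.

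The proportion of Ly6a to Ly6c1 also differed by tissue. Ly6a stood at 84.4 ± 6.09 per 100 CPM of Ly6c1 in Brain Positive, 96.4 ± 8.47 in Retina Positive and 202.9 ± 16.4 in Choroid Positive (SD, n = 3). The Choroid libraries (190.0 to 221.4) did not overlap with those of Brain (77.6 to 89.2) or Retina (86.6 to 101.6). In Choroid Input the ratio was 347.8, 205.4 and 399.1, and in Brain Input 79.5 ± 8.08. Retina Input 1 stood apart again at 356.2, with 98.2 and 118.7 in the other two. Ly6c2, the near copy of Ly6c1, stood at 1.55 ± 0.213 per 100 CPM of Ly6c1 in Brain Positive, 1.43 ± 0.199 in Brain Input and 1.54 ± 0.0277 in Retina Positive. Its reads were few in Retina Input, with estimated counts of 3.0, 5.0 and 0.5. Summing Ly6c1 and Ly6c2 left the log2 difference at 5.29 in Brain and 6.39 in Retina.

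Of 48 other genes with a Ly6/uPAR domain, 10 were listed in any table, and these were tested. In Brain 4 of 9 were higher in Positive and 3 lower, beside 38.3% and 39.7% of all 13957 genes, and the median log2 difference was −0.18 against −0.018 over all genes. The counts thus lay near the background. Lypd2 had 0.261 ± 0.0418 CPM in Input and 11.9 ± 1.76 CPM in Positive (SD, n = 3). It rose by 5.52 ± 0.22 on the log2 scale (SE, edgeR adjusted p = 1.021e-08). Its Input value rests on estimated counts of 9.0, 10.0 and 11.0. Ly6c2 rose from 0.394 ± 0.0829 to 16.6 ± 2.85 CPM, a difference of 5.42 ± 0.22 (edgeR adjusted p = 1.201e-08), close to those of Ly6a and Ly6c1. Its mean level was 1.43 per 100 CPM of Ly6c1 in Brain Input and 1.55 in Brain Positive, and 31.2% of its 50-base words occur in other genes. Whether its counts stand apart from reads of Ly6c1 was not tested, so its call is not independent of that member. Plaur, the urokinase receptor gene, rose by 3.58 ± 0.27 (edgeR adjusted p = 8.709e-07), and Cd59a, which encodes an inhibitor of the complement membrane attack complex, by 2.26 ± 0.18 (edgeR adjusted p = 1.544e-06). Listing needed at least 50 counts in all libraries of 1 fraction. Lypd2, Ly6c2 (Input counts of 14.1, 16.7 and 13.5) and Plaur (45.8, 53.4 and 45.4) met this through Positive only. The filter thus favoured a rise for these genes, and their calls are not independent of it. The genes that fell were Lypd1 (−1.43 ± 0.078), Lynx1 (−0.46 ± 0.062) and Lypd6b (−0.25 ± 0.094), with edgeR adjusted p of 9.906e-08, 6.688e-05 and 0.03501. Lynx1 and Lypd1 encode modulators of nicotinic receptors. The Lypd6b call was lost without Brain Input 2 or 3 or Brain Positive 2 or 3 (edgeR adjusted p of 0.1349, 0.1039, 0.06839 and 0.07873). Ly6g6e (−0.77 ± 0.38) and Lypd6 (−0.18 ± 0.092) did not pass, and Ly6g6e passed once the replicate number entered as a block (edgeR adjusted p = 0.01632).

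In Retina 1 of 6 listed relatives was higher and 1 lower, beside 15.3% and 10.8% of 12827 genes, and their median difference was 0.17 against −0.034 over all genes. Ly6c2 rose by 6.10 ± 0.61 (SE, edgeR adjusted p = 0.0002795), from the few Input counts given above to 6.46 ± 2.96 CPM, and by 6.89 without Retina Input 2. Here too Ly6c2 was listed through Positive only and shares sequence with Ly6c1, so both limits given for Brain apply. Lypd6 fell by 0.46 on the log2 scale (−0.46 ± 0.12, edgeR adjusted p = 0.02715), a call lost without any of the 3 Input libraries or without Positive 1 (edgeR adjusted p 0.07014, 0.09875, 0.09098 and 0.08515). Cd59a differed by 0.44 ± 0.18, with edgeR adjusted p = 0.1128, or 0.01421 with the replicate block. Lypd1 (0.35 ± 0.20), Lynx1 (−0.012 ± 0.084) and Lypd6b (−0.61 ± 0.23) did not pass. In Choroid 1 of 3 was higher, where 16.3% of 7569 genes were higher and 20.2% lower. It was Gpihbp1, the gene for the endothelial protein that holds lipoprotein lipase in capillaries, which was listed in Choroid alone. Its level was 7.48 ± 2.23 CPM in Input and 80.3 ± 26.5 CPM in Positive (SD, n = 3), and it rose by 3.34 ± 0.37 on the log2 scale (SE, edgeR adjusted p = 3.075e-05). Gpihbp1 was also listed through Positive only, with Input counts of 31.9, 10.0 and 90.5, so the filter favoured a rise. Cd59a (0.24 ± 0.29) and Lynx1 (−0.53 ± 0.26) did not pass there.

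**Figure D3:**
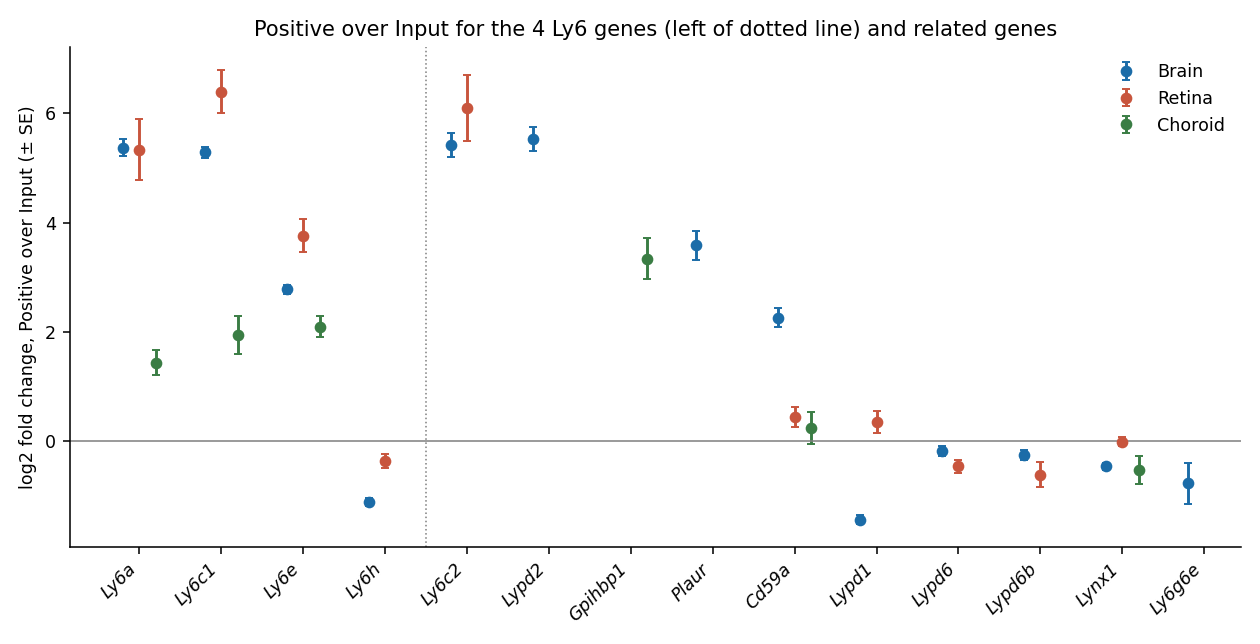
Log2 fold change of Positive over Input (± SE of the fit) in Brain, Retina and Choroid, 3 Input and 3 Positive libraries each, for Ly6a, Ly6c1, Ly6e and Ly6h (left of the dotted line) and 10 relatives; a missing point is a gene not listed for that tissue. Ly6c2 lies beside Ly6c1 in Brain and Retina, Lypd2 reaches 5.52 in Brain, and Ly6h, Lypd1 and Lynx1 lie below 0 in Brain.

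Differences between tissues were tested for the relatives listed in both tables. Retina minus Brain, 3 of 6 passed, 2 higher and 1 lower, beside 28.9% and 20% of 12438 genes. Lypd1 differed by 1.83 ± 0.18 (SE, edgeR adjusted p = 1.147e-05). Its Brain level fell from 83.3 ± 5.79 to 30.8 ± 2.00 CPM while in Retina it was 6.60 ± 0.579 and 8.34 ± 1.76 CPM (SD, n = 3). Lynx1 differed by 0.49 ± 0.097 (edgeR adjusted p = 0.001284), and with all 18 libraries in the fit this call was lost (0.09816). Cd59a differed by −1.78 ± 0.29 (edgeR adjusted p = 0.0003648) and, in Choroid minus Brain, by −1.69 ± 0.38 (edgeR adjusted p = 0.002178), the only call of 2 genes there, beside 22.4% higher and 25.7% lower of all genes. The Input level of Cd59a was 21.4 ± 4.38 CPM in Brain, 96.8 ± 18.5 in Retina and 144.0 ± 36.2 in Choroid, while its Positive levels were 102.5 ± 21.7, 132.1 ± 28.3 and 170.7 ± 59.0 CPM (SD, n = 3). Choroid minus Retina, 0 of 2 passed with edgeR, 0 with DESeq2 and 0 before adjustment, beside 9.49% higher and 22.3% lower of all genes.

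The neighbours on chromosome 15 were examined next, from 500 kb before to 500 kb after the cluster. Of 87 annotated genes, 25 apart from the members were listed in any table. In Brain 11 of 24 were higher and 6 lower (edgeR, adjusted p under 0.05), beside 38.3% and 39.7% of all genes. In Retina 4 of 22 were higher and 1 lower, beside 15.3% and 10.8%, and in Choroid 2 of 6 higher and 1 lower, beside 16.3% and 20.2%. Median log2 differences were 0.18, −0.050 and −0.039, against −0.018, −0.034 and −0.013 over all genes. The Choroid median changed sign without Choroid Input 2 (0.076) or Positive 1 (0.081). Gsdmd, the gene of the pore-forming protein gasdermin D, rose by 3.27 ± 0.11 in Brain (edgeR adjusted p = 2.258e-09), from 3.04 ± 0.185 to 29.2 ± 1.32 CPM, and by 3.91 ± 0.31 in Retina (edgeR adjusted p = 0.0001122), from 0.673 ± 0.258 to 10.5 ± 1.79 CPM (SD, n = 3). Naprt1, an enzyme gene of NAD synthesis, rose by 1.16 ± 0.23 in Retina (edgeR adjusted p = 0.00773) and by 0.69 ± 0.13 in Brain, the latter value chosen after it was seen. Genes that fell in Brain were Mapk15 (−1.57 ± 0.43, or −2.31 without Brain Positive 3), the neuronal activity gene Arc (−1.48 ± 0.093), Bai1 (−1.14 ± 0.062) and Nrbp2 (−1.02 ± 0.091), with edgeR adjusted p of 0.00697, 2.823e-07, 9.535e-08 and 3.565e-06. Bai1 fell in Retina too (−0.49 ± 0.12, edgeR adjusted p = 0.02024), a call lost without Retina Input 1 or 3 (0.08338 and 0.0545). Puf60 rose in Retina by 0.24 ± 0.071 (edgeR adjusted p = 0.0384) and lost the call with the replicate block (0.07129). In Choroid Nrbp2 fell (−1.32 ± 0.26, edgeR adjusted p = 0.001955), and Scrib rose by 1.90 ± 0.54 (edgeR adjusted p = 0.01537), or by 0.72 without Choroid Positive 2, and lost the call without Choroid Input 2 (0.07044). At the depths given above, Gsdmd in Retina was listed through Positive only. Mapk15 in Brain (0.516 CPM in Positive) and Nrbp2 in Choroid (36.0 CPM in Positive) were listed through Input only. As for Lypd2, Ly6c2 and Gpihbp1, the filter favoured the direction of these calls, which are not independent of it.

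**Figure D4:**
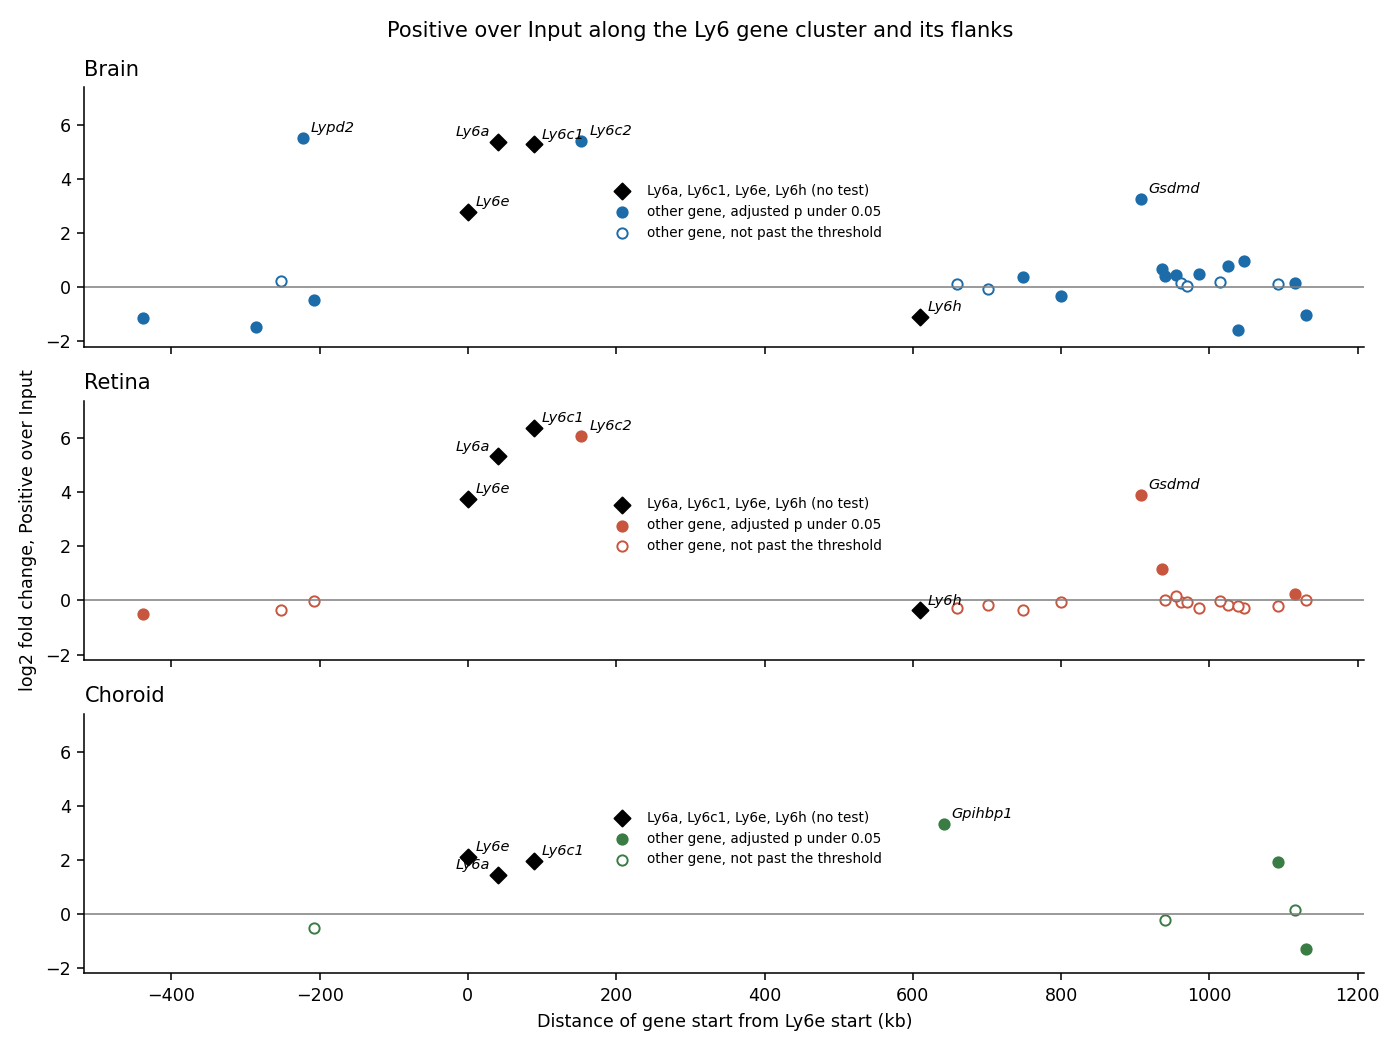
Log2 fold change of Positive over Input for each listed gene of the chromosome 15 block, by distance of its start from that of Ly6e in kb, in the 3 tissues; diamonds are Ly6a, Ly6c1, Ly6e and Ly6h, filled points other genes past an adjusted p of 0.05, open points other genes not past it. In Brain the genes above 2 are Lypd2, Ly6e, Ly6a, Ly6c1, Ly6c2 and Gsdmd, and the others lie between −1.57 and 0.95.

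Genes that build and attach the GPI anchor, which Ly6 proteins need, were tested as a list. In Brain 9 of 27 listed genes were higher and 6 lower, against the 38.3% and 39.7% of all genes, with a median of 0.088 that became −0.0095 without Brain Positive 2. Pgap1, an inositol deacylase gene, fell by 1.63 (−1.63 ± 0.11), Pigz, a mannosyltransferase gene, by 1.61 (−1.61 ± 0.13), and Dpm3, a subunit gene of dolichol-phosphate mannose synthase, rose by 1.51 ± 0.16, with edgeR adjusted p of 3.741e-07, 1.758e-06 and 1.193e-05. In Retina 3 of 27 passed, all lower, a share near the 10.8% of all genes that were lower there: the mannosyltransferase gene Pigm (−1.24 ± 0.12), Pgap1 (−0.73 ± 0.12) and Pigc (−0.54 ± 0.10), with edgeR adjusted p of 0.0002318, 0.002904 and 0.006371 and a list median of −0.19. In Choroid 3 of 11 passed, all lower, beside 20.2% of all genes: Pigz (−3.31 ± 0.60), Pigs, of the transamidase that attaches the anchor (−1.04 ± 0.25), and Pigp (−0.99 ± 0.30), with edgeR adjusted p of 0.0009275, 0.006231 and 0.02142 and a list median of −0.18. That median was 0.017 without Choroid Input 2 and 0.096 without Choroid Positive 3. With the replicate block 4 of 11 passed in Choroid, 1 of them, Pigk, higher. The Pigp call was lost without Choroid Input 2 or 3 or Positive 1 (0.08186, 0.07913 and 0.0756). Pigz, Pigs and Pigp had means of 2.40, 43.5 and 31.8 CPM in Choroid Positive, where the shallowest library held 713733 counts. At that depth these genes were listed through Input only. The filter thus favoured a fall, and their calls in Choroid are not independent of it.

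Subunits of nicotinic receptors, with which Ly6h and Lynx1 interact, were mostly lower in Brain Positive. There 6 of 7 listed genes were lower, beside 39.7% of all genes, among them Chrna7 (−1.40 ± 0.20, edgeR adjusted p = 0.000118) and Chrna4 (−1.18 ± 0.13, edgeR adjusted p = 1.183e-05), and the median was −1.07 beside −1.11 for Ly6h itself. The exception was Chrnb1, the beta subunit known from muscle, which rose from 1.43 ± 0.289 to 11.3 ± 0.794 CPM (SD, n = 3), by 2.96 ± 0.18 (SE, edgeR adjusted p = 1.855e-07). Neuronal markers were lower in Brain Positive too, in 10 of 10 cases and by −0.71 (Gad1) to −1.62 (Camk2a), and in Retina in 5 of 10. The lower levels were therefore not particular to these subunits and Ly6h, and no link between them was tested. In Retina 4 of 10 were lower, beside 10.8% of all genes, with a median of −0.41: Chrna3 (−0.72 ± 0.19), Chrna6 (−0.50 ± 0.092), Chrnb3 (−0.44 ± 0.080) and, named after its value was seen, Chrnb2 (−0.40 ± 0.071), with edgeR adjusted p of 0.02585, 0.005878, 0.005341 and 0.004899. The Chrna3 call was lost without Retina Input 1, 2 or 3 or Positive 1 or 2 (edgeR adjusted p 0.05378 to 0.1081). In Choroid only Chrnb1 was listed, and it rose by 1.61 ± 0.48 (edgeR adjusted p = 0.01909), a call lost without Choroid Input 1 or 3 or Positive 2 or 3 (0.06531, 0.07473, 0.05758 and 0.05695).

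Finally, the genes with the most similar pattern were found from Pearson's r of log2(CPM + 1) over the libraries. The libraries fall into 6 groups that share tissue and fraction, so r mostly reflects group levels and is a description. For Ly6a over 18 libraries they were Wfdc1 (r = 0.989), Slc39a8 (0.987), Ptrf (0.983), the tight junction gene Cldn5 (0.982) and Palmd (0.980). For Ly6c1 they were Itm2a (r = 0.988), Vwa1 (0.981), Lsr (0.964), Net1 (0.960) and Slco2b1 (0.959), and for Ly6e Grap (r = 0.989), Crip2 (0.988), Cdkn1a (0.987), Ldlrad3 (0.987) and Pdgfb (0.984). The members resembled each other less than this, with r = 0.947 between Ly6a and Ly6c1, 0.941 between Ly6a and Ly6e and 0.915 between Ly6c1 and Ly6e. For Ly6h, over the 12 Brain and Retina libraries, they were Jph4 (r = 0.998), Fam69b (0.997), Pak1 (0.997), Adap1 (0.996) and Nat8l (0.996). Ranked by Spearman's rho in place of r, 4 of the 5 genes were shared for Ly6a, 3 for Ly6c1, 1 for Ly6e and 0 for Ly6h, so the lists for Ly6e and Ly6h depend on the measure.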

How the data were processed

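Gene tables for brain, retina and choroid, with 3 Input and 3 Positive libraries each, were used. Per the labels, libraries were made with a directional kit. The build mm10 and the tool DESeq come from the submitters' processing notes. Aligner, counting program and strand use were not given in the sources used here. Per the file headers, the authors kept genes with a raw value of at least 50 in all samples of 1 fraction. A gene that met this in 1 fraction only was thereby favoured to be higher in that fraction, which limits the tests of such genes. The deposited raw values are estimated counts per gene that the authors left unnormalized, per the file headers, and they were rounded to whole numbers here. The authors' deposited normalized values are on a log2 scale and served as an alternative only.

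Each tissue was fitted with edgeR 4.0.16 (R 4.3.3; TMM, filterByExpr with a minimum count of 10, quasi-likelihood test, Benjamini-Hochberg threshold 0.05 over all listed genes), with Input and Positive as groups. Tissue differences were interaction terms over 12 libraries and the genes listed in both tables. Fits were tested on simulated data. Alternatives were DESeq2 size factors, no filter, DESeq2 1.42.0, a replicate block, leaving out each library, and all 18 libraries. The sum of Ly6c1 and Ly6c2, the authors' normalized values and the marker sum without Kdr were added after seeing the data. Per the protocol in the labels, Input is part of the same homogenate as Positive, so equal numbers pair; as a check, same-numbered libraries deviated together (correlation over 0.1) in 7 of 9 cases, within a range of −0.098 to 0.362.

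The members and all lists were chosen with earlier results of these data known, so the members' contrasts carry no test. Named genes were every member, every called relative, the largest called genes of the block (up to 8 per tissue; 7 taken where more were called), the 3 largest called genes per tissue of the GPI and nicotinic lists, and the 5 genes most like each member. Ly6g6e, Kdr, Pigk, Cd79a, Ptprc, Chrnb2 in Retina, Naprt1 in Brain and the 3 genes set beside Ly6a in Retina Input 1 fall outside this rule and were chosen after their values were seen. With 3 against 3 libraries an exact two-sided permutation test cannot go below 0.1, so single genes were tested only within the fits across all genes.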

Additional observations from a re-analysis of the deposited data

Results flagged for a closer look

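Differences between tissues in Positive over Input passed the test for 3 of 6 relatives in Retina minus Brain, beside 28.9% higher and 20% lower of all genes, a share near the background. Lypd1 differed by 1.83 ± 0.18 in Retina minus Brain (log2, SE, 12 libraries, edgeR adjusted p = 1.147e-05), with a lower Positive level in Brain and no call in Retina. Lynx1 differed by 0.49 ± 0.097 in the same direction (edgeR adjusted p = 0.001284, or 0.09816 with all 18 libraries in the fit). Cd59a differed by −1.78 ± 0.29 in Retina minus Brain (edgeR adjusted p = 0.0003648) and by −1.69 ± 0.38 in Choroid minus Brain (edgeR adjusted p = 0.002178). The Input level of Cd59a was higher in Retina and Choroid than in Brain, and its part in the difference was not tested.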

How the results depend on the processing

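All 123 alternative values of the 4 members' log2 differences kept their direction and moved by less than the pooled SD of log2 CPM between libraries of a group. For the fits that left out 1 library, staying under this SD was nearly fixed in advance. Leaving out 1 of 3 libraries can hardly move a mean that far, and an outlying library widens the SD itself. No stability is read from it for those fits. Against the smaller SD of the same-numbered differences, 0.031 for Ly6e and 0.091 for Ly6c1 in Brain, some moved by more, with Ly6e at 2.72 without Brain Input 3 and 2.84 by the authors' normalized values, and Ly6c1 at 5.38 without Brain Input 1. The range for Ly6a in Retina was 4.95 to 6.13 when 1 library was left out. No named gene that passed the test changed direction. List medians near 0 did change sign: the GPI list in Brain and Choroid and the chromosome 15 block in Choroid, as given above, and the relatives in Retina minus Brain, from 0.12 to −0.012 without Retina Positive 2 and to −0.73 with all 18 libraries. The order of the group levels was the same with scaling within each table. Leaving out 1 library moved some counts of calls. Relatives called in Retina ranged from 1 to 3 (2 with all libraries), chromosome 15 block genes called in Retina from 3 to 6 (5), all genes called in Retina from 1836 to 3637 (3352), the nicotinic list in Choroid from 0 to 1 (1), relatives called in Retina minus Brain from 3 to 5 (3) and in Choroid minus Retina from 0 to 1 (0 of 2 by edgeR, 0 by DESeq2, and 0 before adjustment at a p under 0.05). With all 18 libraries, Retina minus Brain called 1 relative, Cd59a, and 2170 genes in place of 6072, over 7270 genes instead of 12438. With the replicate block, 8 relatives were called in Brain in place of 7 and 3 in Retina in place of 2, and 11054, 3085 and 2998 genes in Brain, Retina and Choroid; Ly6g6e in Brain and Cd59a in Retina gained the call and Puf60 in Retina lost it. In Choroid 4 GPI genes were called in place of 3. Among chromosome 15 genes in Retina the block gave 3 higher and 2 lower in place of 4 and 1. It changed no other call among the named genes. Ly6c1 in Choroid rests on estimated counts of 150.7 to 610.9 in Positive and 202.9 to 328.7 in Input, the smallest depth behind any member there.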
